A study of Mus musculus with 35 samples.

Results

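The transcriptome described here is that of podocytes from 6 control mice of the genotype Lmx1b+/lox, labelled WT, which were given the solvent DMSO and no drug. The 6 libraries were chosen by genotype and treatment from the 35 libraries of the series, and no value was used to choose them. Each library came from sorted podocytes of a separate mouse on a C57BL/6 background, at an age of 7 to 10 weeks. All 6 mice carried 1 normal Lmx1b allele and 1 allele with loxP sites around exons 4 to 6, which encode the homeodomain. They also carried an rtTA transgene, tetO::Cre and the mT/mG reporter. In this combination a human promoter fragment that is active in podocytes switches on Cre in podocytes when doxycycline is given, and Cre turns the cells from red to green. All 6 mice drank doxycycline at 2 mg/ml for 7 days, so these are podocytes in which 1 Lmx1b allele was open to recombination, not podocytes of untouched wild-type mice. Solvent was injected every other day. Kidneys were perfused with magnetic beads and digested, the suspension of dissociated cells was filtered at 40 μm, and green cells were sorted on day 7. The mice are called mouse 1 to mouse 6, a numbering that has no meaning beyond naming them.

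Podocytes are the epithelial cells that wrap the glomerular capillaries with interdigitating foot processes. Neighbouring foot processes are joined by the slit diaphragm, a cell junction complex built around nephrin, and are held on the glomerular basement membrane by integrins and dystroglycan. An actin cytoskeleton shapes the processes, a sialic acid-rich coat led by podocalyxin keeps them apart, and a small group of transcription factors, among them Wt1, Tcf21 and Lmx1b, maintains the cell type. Mature podocytes do not divide.

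Transcript levels are given as TPM, the number of transcripts of a gene per 1000000 transcripts. The unit corrects for gene length and sets the sum of each library to 1000000, so levels of different genes in the same mouse can be compared, but every value is a share of the whole. Errors are SDs over 6 mice throughout. The table listed 33292 genes, of which 21636 were protein-coding and 11139 were long noncoding RNAs. From 14022455 to 22663173 reads per mouse could be recovered from the steps between low TPM values, and 3 reads on a transcript of 1 kb corresponded to 0.481 to 0.735 TPM.

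The 3 markers used to check the cell type were high in all 6 mice. They were Nphs1 (nephrin), Podxl (podocalyxin) and Synpo (synaptopodin, an actin-binding protein of foot processes). Podxl ranged from 5581 to 8991 TPM (median 7322), Synpo from 1784 to 3199 TPM (median 2409) and Nphs1 from 131 to 246 TPM (median 210.3). Podxl was above 99.9% of the 10357 genes that passed 1 TPM in every mouse, Synpo above 99.7% and Nphs1 above 91.1%. Pearson correlations of log2(TPM + 1) between pairs of mice, a description over genes that all share the same 6 libraries, lay between 0.956 (mice 1 and 2) and 0.980 (mice 4 and 6). Mouse 1 had the lowest mean correlation with the others (0.963), and mice 1 and 2 held transcripts of other cell types, whose values are given below with the markers of those cells. In a sorted bulk sample a lower level of a gene cannot be told apart from fewer cells that express it.

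Most of the listed genes were not detected throughout. 10357 of 33292 genes (31.1%) exceeded 1 TPM in every mouse, and they held 99.2% of the TPM. Among protein-coding genes the share was 45.6% (9874 genes), and among long noncoding RNAs it was 4.24% (472 genes). A further 4568 genes passed 1 TPM in some mice but not in all, and 13278 genes were listed at 0 in all 6. The number of genes above 1 TPM in a mouse ranged from 11481 in mouse 4 to 13190 in mouse 1.

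A small number of genes supplied much of the mRNA. The highest gene alone held 3.03% of the TPM, the 10 highest 11.4%, the 25 highest 17.5% and the 100 highest 30.1%. 61 genes were enough for 25% of the TPM, 429 for 50%, 1726 for 75% and 4046 for 90%. By mean level, 117 genes reached 1000 TPM and 1750 lay between 100 and 1000 TPM. The median of the genes above 1 TPM in every mouse was 25.2 TPM.

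Tmsb4x, which encodes the actin monomer-binding peptide thymosin beta 4, was the most abundant transcript in 6 of 6 mice, at 30277 ± 3604 TPM. It lies on chromosome X at chrX:165990089-165992311 (GRCm39, minus strand). Its values ran from 24711 to 33990.3 TPM (median 30691), with mouse 5 lowest and mice 4 and 6 highest. Fos (12074 ± 5667 TPM), an immediate early transcription factor, was also among the highest and is described with its group below.

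Behind these came a mixed set of secreted, membrane and cytoskeletal transcripts. Itm2b, a transmembrane protein of the secretory pathway, reached 10807 ± 969 TPM, and Igfbp7, a secreted binding protein of insulin-like growth factors, 8591 ± 715 TPM. Actb (beta-actin) stood at 7341 ± 449 TPM and Podxl (chr6:31496418-31540924, minus strand) at 7321 ± 1229.8 TPM. Sdc4, a heparan sulfate proteoglycan of focal adhesions, followed at 5942 ± 587 TPM, and the lysosomal membrane protein Laptm4a at 5273 ± 611 TPM. Cdkn1c, the cell cycle inhibitor p57, had 4915 ± 551 TPM, with 29.0% of its exon bases shared with another annotated gene. The strand of the counting is not given in the sources used here, so that reads of overlapping genes may be mixed. Calm2 (calmodulin) had 4379 ± 217 TPM, Sparc (a matrix-binding glycoprotein) 4165 ± 475 TPM, the tetraspanin Cd81 3807 ± 302 TPM and Enpep (aminopeptidase A, a podocyte surface enzyme) 3498 ± 394 TPM. Ftl1 (ferritin light chain, 3174 ± 364 TPM) had copies elsewhere in the genome for 74.8% of its 50-base windows, and Gpx3 (3765 ± 1549 TPM) shared 85.01% of its exon bases with another gene, so both levels are uncertain. Most of the other places in the list of 25 were taken by mitochondrially encoded and immediate early genes.

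**Figure D1:**
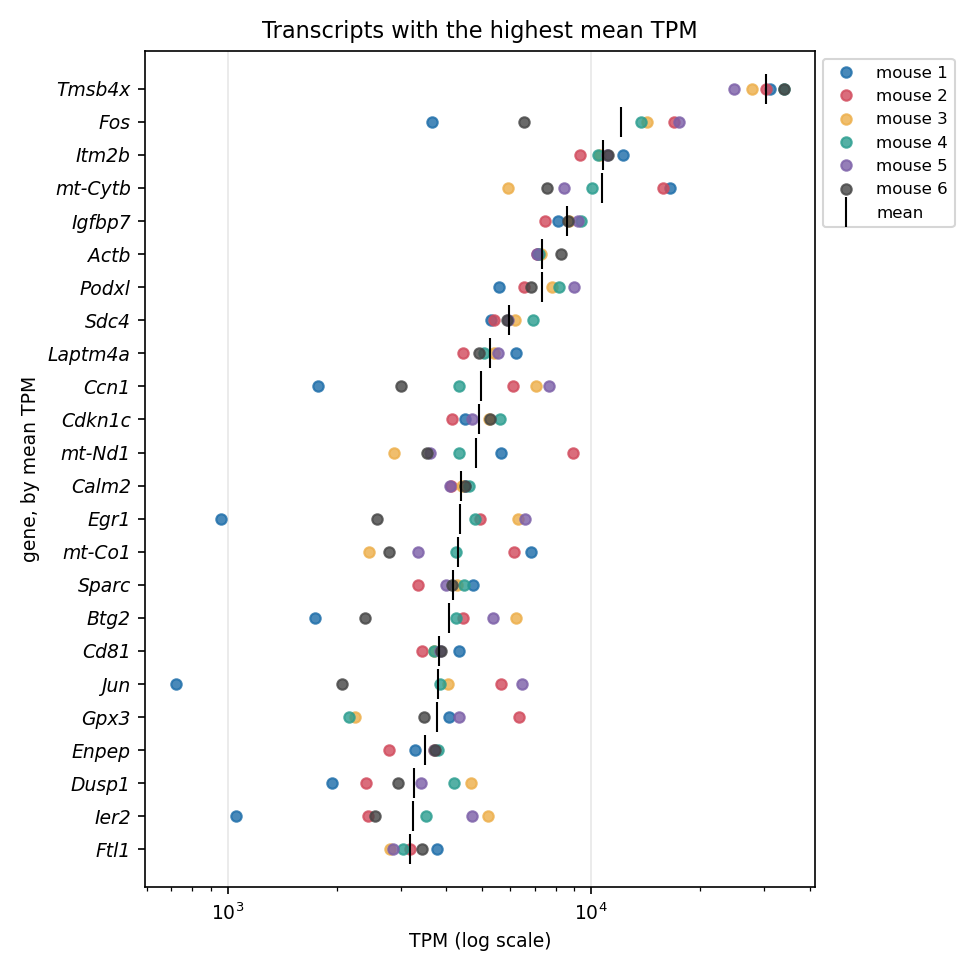
24 of the 25 genes with the highest mean TPM, from top to bottom, with TPM on a log axis. Each dot is a mouse and the black bar is the mean of the 6 mice. Tmsb4x stands apart at the top, and the dots of Itm2b, Igfbp7, Actb and Calm2 lie close together, while those of Fos, Ccn1, Egr1, Btg2, Jun and Ier2 spread out with mouse 1 lowest.

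The order of the most abundant genes differed between mice. 15 genes were among the 25 highest in every mouse and 37 genes were among the 25 highest in at least 1 mouse. Tmsb4x kept rank 1 throughout, Itm2b stayed between ranks 3 and 5, and Podxl between ranks 6 and 10. Jun moved between ranks 11 and 177, and Egr1 between ranks 9 and 109.

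To describe what fills the total, genes were sorted into 24 functional classes by name or by list. Together these classes held 2401 genes and 43.1% of the TPM. The rest of the protein-coding genes held 55.6% ± 1.20 and long noncoding RNAs 1.24% ± 0.175. The largest class was the actin cytoskeleton at 5.94% ± 0.513 of the TPM from 72 genes. Immediate early genes followed at 4.52% ± 1.99, the slit diaphragm and foot process membrane at 3.72% ± 0.523 (33 genes) and nuclear genes of oxidative phosphorylation at 3.52% ± 0.446 (92 genes). Mitochondrially encoded genes held 2.87% ± 1.21, vesicle, endosome and lysosome genes 2.61% ± 0.202, and secreted signals 2.52% ± 0.391. Of the 13 mitochondrially encoded genes, 8 had copies elsewhere in the genome for 50% or more of their windows, so their share is uncertain. The 90 cytosolic ribosomal protein genes held 1.61% ± 0.235. Other shares were those of ubiquitin and proteasome genes (1.89% ± 0.103), heat shock chaperones (1.46% ± 0.207), calcium-binding S100 proteins and annexins (1.32% ± 0.0930) and glycolysis (0.355% ± 0.0344).

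Some summed class shares were steadier between mice than others, but the classes differed in size. The CV, the SD as a percentage of the mean, was 4.22% for the summed share of RNA processing genes, 4.54% for solute carriers and ion pumps, 4.99% for small GTPases and 5.47% for ubiquitin and proteasome genes. It was 14.1% for the slit diaphragm, 42.1% for mitochondrially encoded genes and 44.1% for immediate early genes. The sums covered 546 genes for solute carriers and ion pumps and 33 for the slit diaphragm. The median CV of single genes above 1 TPM in every mouse was 18.3% and 17.1% in these classes, the reverse order. This median was below 17.1% for RNA processing, small GTPases, and ubiquitin and proteasome genes. It was 44.6% for mitochondrially encoded and 50.1% for immediate early genes. The effect of class size was not tested. Length scaling shaped the order of the classes: counted as reads, the slit diaphragm class held 4.93%, the actin class 4.77%, immediate early genes 3.56%, nuclear genes of oxidative phosphorylation 1.54% and mitochondrially encoded genes 0.964%.

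**Figure D2:**
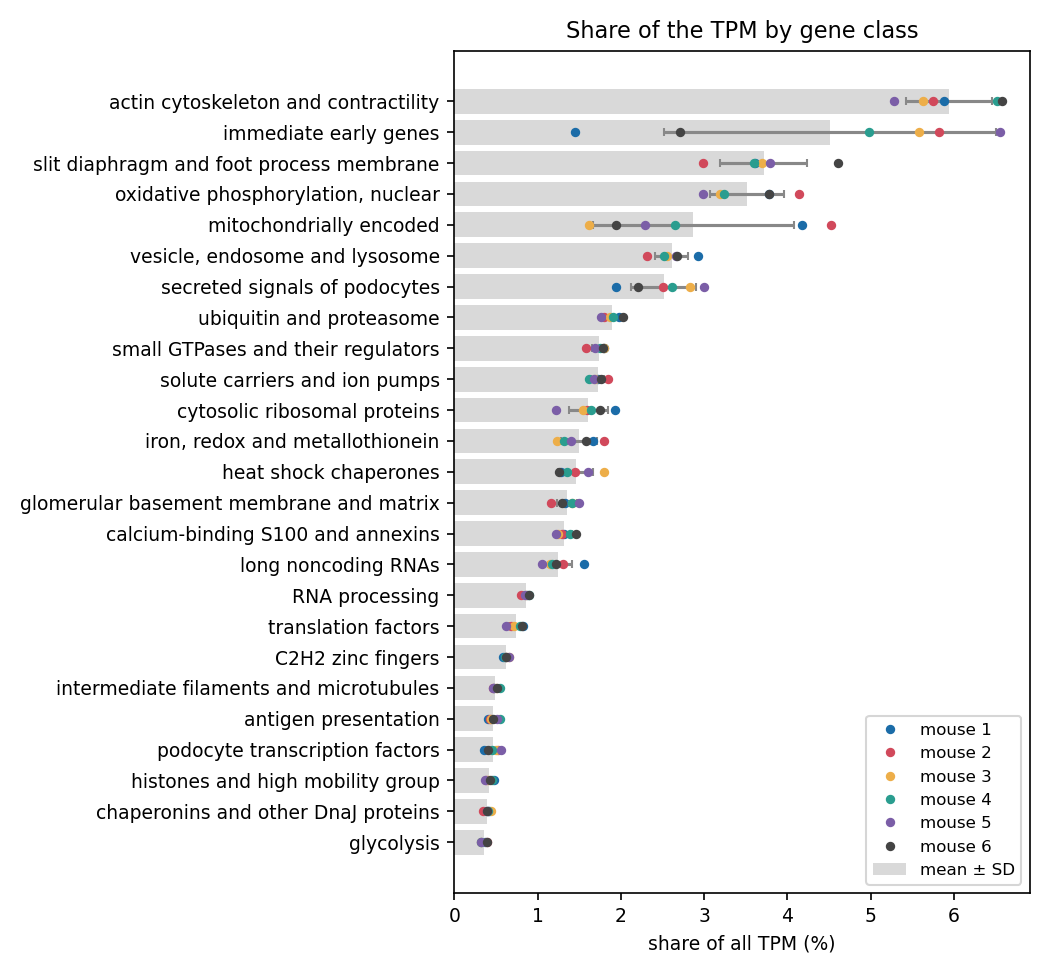
Share of all TPM (%) held by each gene class, with bars for the mean of 6 mice, whiskers for ± 1 SD and a dot for each mouse. Actin genes lead with 5.94%, and the widest spreads are those of immediate early genes (1.45% to 6.55%) and mitochondrially encoded genes (1.61% to 4.53%).

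The slit diaphragm and foot process membrane list summed to 37163 ± 5226 TPM, from 29810.3 to 46076 TPM (median 36552). Mouse 6 had the highest sum and mouse 2 the lowest, and the other 4 mice lay within a narrow band from 36023 to 37964 TPM. Of the 33 listed genes 27 passed 1 TPM in every mouse, which is 81.8% against 45.6% of all protein-coding genes. Among these 27 genes mouse 6 was highest for 4 (14.8%) and lowest for 7 (25.9%), against 15.2% and 13.3% of all 10357 genes. The highest sum thus did not mean the highest level of most members. Levels within the complex differed widely. Nphs1, on chromosome 7 at chr7:30157740-30186675 (plus strand), had 201 ± 39.4 TPM, lowest in mouse 6 and highest in mouse 5. Among the nephrin partners Kirrel1 (Neph1) had 84.2 ± 20.3 TPM, Kirrel2 42.2 ± 3.78 TPM and Cd2ap, the adaptor that links the slit to actin, 75.7 ± 8.75 TPM. Kirrel3 was listed at 0 in all 6 mice.

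Linkers between the foot process membrane and actin had higher levels than Nphs1 and the Kirrel genes in every mouse. Clic5, an ezrin-associated protein, reached 1954 ± 239.8 TPM, Dag1 (dystroglycan) 1733 ± 486 TPM, Ezr (ezrin) 1059.5 ± 181 TPM and Nherf2, the scaffold that couples podocalyxin to ezrin, 981 ± 94.7 TPM. The receptor phosphatase Ptpro had 874 ± 205 TPM and the tetraspanin Cd151 708 ± 70.8 TPM. Scaffolds of the junction were lower, with Tjp1 (ZO-1) at 240.2 ± 60.0 TPM and Magi2 at 156 ± 20.7 TPM. Crb2, a polarity protein of the slit, had 299 ± 65.6 TPM and was lowest in mouse 1 (185 TPM) and highest in mouse 3 (377 TPM). Dpysl2 was the steadiest member, from 600.1 to 642 TPM (median 618), a CV of 2.24%. The cation channel Trpc6 was at 0 in 5 mice and at 0.606 TPM in mouse 6, close to the level of 3 reads on a transcript of 1 kb. For 11 of the 27 detected members mouse 1 held the lowest value, and for 11 mouse 5 held the highest. Over all 10357 genes mouse 1 was lowest for 2004 and mouse 5 highest for 2302.

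The actin list summed to 59407 ± 5135 TPM and 64 of its 72 genes passed 1 TPM in every mouse (88.9%, against 45.6% of all protein-coding genes). Tmsb4x supplied 51.0% of the sum. Besides Actb and Synpo, the higher members were Tmsb10 (1379 ± 171 TPM), Arpc2 of the Arp2/3 complex (1319 ± 191 TPM), the myosin light chains Myl6 (1293 ± 241 TPM) and Myl12a (1176 ± 148 TPM), and the inhibitor of small GTPases Arhgdia (1031 ± 102 TPM). The kinase Pak1 reached 1026 ± 203 TPM. Gsn (gelsolin, an actin-severing protein), which is not in this list or its sum, had 2833 ± 214 TPM. Actn4, the alpha-actinin of foot processes, had 833 ± 201 TPM, from 592 to 1137 TPM (median 842). Mouse 5 was highest and mouse 1 lowest, and Myh9, the heavy chain of nonmuscle myosin IIA, was also lowest in mouse 1 (57.8 TPM against a median of 133 TPM). Actb itself was among the steadier genes, with 5 mice between 7083 and 7271 TPM and mouse 6 at 8249 TPM.

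Related genes differed widely in level. 20 pairs of genes, 19 of them of relatives and 1 of the transcription factors Wt1 and Lmx1b, which belong to different families, were compared within each mouse as differences in log2(TPM + 1). In 19 of 20 pairs the gene placed first was higher in 6 of 6 mice. For each of these 19 pairs p = 0.03125 in a two-sided exact sign-flip permutation test, the smallest value that 6 mice allow, and the Benjamini-Hochberg value over the 20 pairs was 0.0329. These p-values refer to the spread between these mice only, and the pairs were chosen with earlier results of these data known. Actn4 exceeded Actn1 by 3.90 ± 0.09 log2 units and Myh9 exceeded Myh10 by 4.93 ± 0.93. Tmsb4x exceeded Tmsb10 by 4.46 ± 0.05 and Actb exceeded Actg1 by 2.90 ± 0.26, but 73.6% of the 50-base windows of Actg1 had a copy elsewhere. Synpo stood 10.82 ± 0.73 log2 units above Synpo2, the paralog of muscle. Ezr was above Msn (moesin) by 2.56 ± 0.22. Podxl stood 11.79 ± 1.35 above its relative Cd34, a marker of endothelium, and Magi2 6.38 ± 0.37 above Magi1. The exception was Trpc6 against Trpc5, both under 1 TPM in every mouse, with a difference of 0.07 ± 0.23 and p = 1.0 in the same exact test.

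The basement membrane genes showed the chains of the mature glomerular basement membrane. Col4a3, Col4a4 and Col4a5 encode the collagen IV chains of that membrane, and Col4a1 and Col4a2 those of most other basement membranes. Col4a3 had 454 ± 119 TPM, Col4a4 171 ± 22.6 TPM and Col4a5 232 ± 29.7 TPM, while Col4a1 had 3.81 ± 4.21 TPM and Col4a2 3.65 ± 2.26 TPM. Col4a3 exceeded Col4a1 by 6.86 ± 1.32 log2 units and Col4a4 exceeded Col4a2 by 5.38 ± 0.84. Col4a1 was highest in mouse 1 at 12.2 TPM and at or under 3.46 TPM in the other mice. Laminin chains followed the same division. Lamb2, the beta chain of the mature membrane, had 391 ± 109.98 TPM and stood 7.43 ± 0.94 log2 units above Lamb1 (1.33 ± 0.961 TPM). Lama5 had 19.2 ± 3.65 TPM and Lama1 0.0464 ± 0.0832 TPM, a difference of 4.25 ± 0.28. Of the integrin alpha chains, Itga3 (442 ± 102 TPM), the partner of Itgb1 in the laminin receptor of podocytes, stood 7.54 ± 0.89 above Itga6 (1.63 ± 1.55 TPM).

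By level, the matrix list was led by Sparc, Itgb1 (1929.9 ± 205 TPM), Npnt (nephronectin, 1696 ± 259 TPM) and Itgb5 (1382 ± 279 TPM). The list summed to 14227 ± 1178 TPM. Of its 39 genes 21 passed 1 TPM in every mouse (53.8%), near the 45.6% of all protein-coding genes. Agrn (agrin) had 52.1 ± 12.2 TPM, whereas Hspg2 (perlecan) had 0.445 ± 0.581 TPM. The interstitial collagens Col1a1 and Col3a1 and fibronectin (Fn1) were close to 0 except in mouse 1, which held 195, 69.1 and 13.3 TPM of them against medians of 4.08, 1.89 and 0.456 TPM. Col1a2 behaved differently from Col1a1, at 173 ± 54.4 TPM with all mice between 118.3 and 274 TPM.

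Transcription factors of the podocyte summed to 4657 ± 791 TPM, from 3523 to 5577 TPM (median 4779.9). Of these 29 factors 24 passed 1 TPM in every mouse (82.8%, against 45.6% of all protein-coding genes). Klf6, a zinc finger factor that is also an immediate early gene, had 826 ± 367 TPM, and the forkhead factor Foxc2 563 ± 70.8 TPM. Tcf21, a helix-loop-helix factor, had 519 ± 158 TPM, Foxc1 259.8 ± 64.4 TPM and Wt1 (Wilms tumour protein; chr2:104956625-105003961) 209 ± 46.1 TPM. Wwtr1 (Taz), a coactivator of the Hippo pathway, was steady at 239 ± 12.3 TPM, and its relative Yap1 had 59.7 ± 8.29 TPM. Klf15 varied most among these, from 35.1 to 192 TPM (median 96.6), with mouse 2 highest and mouse 1 lowest. 12 of the 24 detected members had their lowest value in mouse 1 and 8 had their highest in mouse 5, against 19.3% and 22.2% of all 10357 genes.

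Lmx1b, a LIM-homeodomain factor and the gene altered in the series, lies on chromosome 2 at chr2:33450977-33531093 (minus strand). It had 69.6 ± 14.7 TPM, from 44.8 to 89.7 TPM (median 71.5), and ranked 2594th of all genes. Mouse 1 was lowest, mouse 4 highest, and the other 4 mice lay between 64.9 and 75.02 TPM. Wt1 exceeded it by 1.57 ± 0.29 log2 units, in 6 of 6 mice. A TPM counts reads over the whole gene, so these values do not tell transcripts of the normal allele from those of an allele that lacks exons 4 to 6.

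Secreted and signalling products of podocytes summed to 25159 ± 3908 TPM. After Igfbp7 came the matricellular protein Ccn1, which is also an immediate early gene (4989 ± 2345 TPM), the laminin receptor Bcam (1982 ± 346 TPM), the serine protease Htra1 (1870.3 ± 210.4 TPM) and Ccn2 (connective tissue growth factor, 1362 ± 393 TPM). Vegfa, the growth factor on which the glomerular endothelium depends, had 1137 ± 260.4 TPM. Mouse 1 was lowest (739.8 TPM) and mouse 5 highest (1447 TPM). Vegfa exceeded Vegfb by 5.06 ± 0.49 log2 units. Angptl2 reached 1005 ± 161 TPM, the semaphorin Sema3g 966 ± 298 TPM and Bmp7 231 ± 24.03 TPM. Further surface and extracellular products ranked among the 40 highest genes, Plat (tissue plasminogen activator, 2494 ± 317 TPM) and Pth1r (the parathyroid hormone receptor, 2160.4 ± 218 TPM).

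Of 56 genes known for human nephrotic syndrome that were found in the table, 49 passed 1 TPM in every mouse (87.5%, against 45.6% of all protein-coding genes). Besides Actn4 and Arhgdia, the higher ones included Tns2 (568 ± 109 TPM), Myo1e (541 ± 168 TPM) and Arhgap24 (402 ± 58.0 TPM), which act on adhesion and actin. The 7 that did not pass in every mouse were Itgb4, Anln, Cubn, Avil, Kank4, Trpc6 and Pax2.

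Immediate early genes, which encode transcription factors and feedback regulators that cells switch on within minutes of a stimulus, were both abundant and uneven. The 36 listed genes, of which 34 form the class described above, summed to 50970.2 ± 22495 TPM. By mouse the sums were 16595, 65630, 63864, 54865, 74203 and 30664 TPM. Mice 1 and 6 were low and the other 4 lay between 54865 and 74203 TPM. 31 of the 36 passed 1 TPM in every mouse (86.1%, against 45.6% of all protein-coding genes) and 14 had a mean of 1000 TPM or more. Fos values were 3651, 16871, 14243, 13690.2, 17439.8 and 6548 TPM in mice 1 to 6. Egr1 followed the same order of low mice, at 960.1, 4959, 6299, 4808, 6561 and 2585 TPM. Jun, the partner of Fos in AP-1, had 720.3, 5640.4, 4051, 3839.6, 6463 and 2070.3 TPM. In each of these 3 genes mouse 1 was lowest and mouse 6 next lowest.

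Mouse 1 was also lowest in each of the further members named here. Btg2, an antiproliferative factor, had 4071 ± 1716 TPM, Ier2 3240.2 ± 1545 TPM, Junb 3007 ± 1448 TPM and the phosphatase Dusp1 3258 ± 1045 TPM. Atf3 was spread from 255.2 to 3937 TPM (median 1249.6) and the nuclear receptor Nr4a1 from 170.3 to 2367 TPM (median 946), both highest in mouse 2 and lowest in mouse 1. Zfp36, which destabilises mRNAs, had 1510.0 ± 733 TPM, Fosb 1158 ± 674 TPM and Nfkbia, the inhibitor of NF-kappaB, 1579 ± 1068 TPM. Jund was the steadiest of the AP-1 genes, from 706 to 1313 TPM (median 1074), with 52.6% of its exon bases shared with another gene. Mouse 1 held the lowest value of 26 of the 31 detected members, mouse 2 the highest of 12 and mouse 5 the highest of 10. Over all 10357 genes these shares were 19.3%, 11.5% and 22.2%. The median CV of the 31 was 48.5%, against 17.5% over all 10357 genes. Without mouse 1 the sum averaged 57845 TPM.

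A CArG box, the site that serum response factor reads, was searched on both strands in the RefSeq promoters (250 bases before to 50 after each start, GRCm38.p6). It was found in 2 of the 30 immediate early genes with a promoter in that table, which is 6.67%, against 1.81% of 27025 genes. A window of each gene is shown with the box in capitals, Zfp36 at chr7:28379267-28379296 (minus strand) and Egr2 at chr10:67537787-67537816 (plus strand). Egr2 has several starts in the table, and a further box lies before another of them at chr10:67537484-67537513 (plus strand).
Zfp36: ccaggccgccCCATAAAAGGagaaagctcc
Egr2: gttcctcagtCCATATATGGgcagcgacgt
Egr2, other start: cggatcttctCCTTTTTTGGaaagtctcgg
Such a match is a description of the letters in this window and not of binding. Egr2 itself had 114 ± 73.3 TPM, from 7.47 to 189 TPM (median 119), with mouse 1 lowest.

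Heat shock chaperones were all detected, 27 of 27 above 1 TPM in every mouse, against 45.6% of all protein-coding genes. They summed to 14573 ± 2072 TPM, from 12564 to 17948 TPM (median 14015). Mouse 3 was highest and mice 1 and 6 lowest. The constitutive members carried most of the sum. Cryab (alpha B-crystallin, a small heat shock protein) had 2575 ± 247 TPM with a CV of 9.58%, the lectin chaperone Calr (calreticulin) 1685 ± 172 TPM, Pdia3 1370.3 ± 125 TPM, Hsp90ab1 1338 ± 182 TPM and the mitochondrial Hspa9 227 ± 9.79 TPM with a CV of 4.31%. The chaperone of the endoplasmic reticulum Hspa5 (BiP) had 1616 ± 511 TPM and was higher in mice 3 and 5 (2305 and 2150.1 TPM).

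The inducible members divided the mice. Hspa1a had 88.0, 680.1, 1091, 101, 813 and 187 TPM in mice 1 to 6 and its neighbour Hspa1b 113, 760.3, 838, 94.7, 903 and 204 TPM. Both were high in mice 2, 3 and 5 and low in mice 1, 4 and 6. Dnajb1, their cochaperone, had 99.5, 361, 970.2, 65.0, 558 and 142 TPM, with the same 3 mice high. Hspa8, the constitutive member of that family, ranged only from 638 to 1439.7 TPM (median 1021). The division differed from that of the immediate early genes in mouse 4, whose immediate early sum was 54865 TPM. For 15 of the 27 heat shock genes mouse 3 held the highest value and for 12 mouse 6 held the lowest, against 16.9% and 13.3% of all 10357 genes. Hspa1a and Hspa1b are near-identical copies: 60.4% and 62.3% of their 50-base windows occurred elsewhere, and their ratio was 0.977 ± 0.185, so their separate levels are uncertain.

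**Figure D3:**
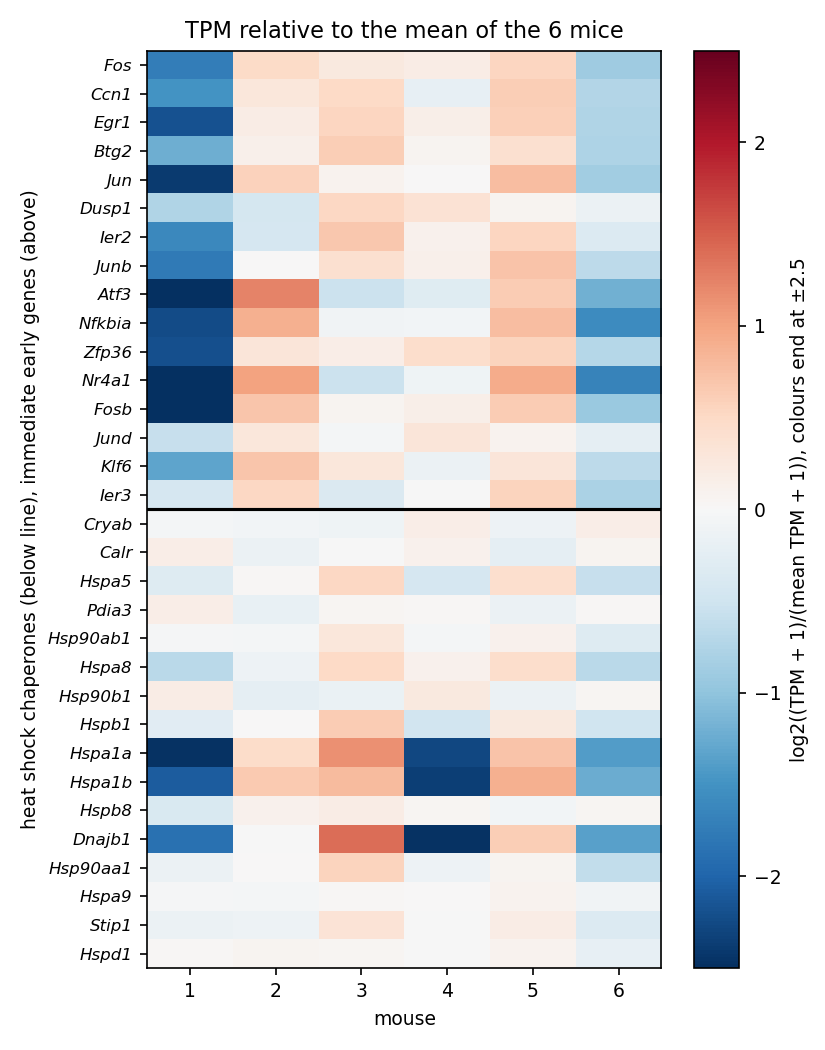
The 16 immediate early genes and the 16 heat shock chaperones with the highest mean TPM (rows, divided by the black line) in the 6 mice (columns), coloured by log2((TPM + 1)/(mean TPM + 1)). The immediate early rows are blue in mice 1 and 6, whereas Hspa1a, Hspa1b and Dnajb1 are blue in mice 1, 4 and 6 and Cryab, Calr and Hspa9 are nearly white throughout.

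The core letters of the heat shock element, GAANNTTC, which read the same on both strands, were present in the promoters of 12 of the 22 heat shock genes with a RefSeq promoter (54.5%), against 9.04% of 27025 genes. The 12 were Bag3, Chordc1, Dnaja1, Dnajb6, Fkbp4, Hspa1a, Hspa1b, Hspb1, Hspb8, Hspd1, Hspe1 and Hsph1. The windows of the inducible Hsp70 genes, of Hspb1 and of the chaperonin pair are shown with the element in capitals, because they include both uneven and steady members.
Hspa1a: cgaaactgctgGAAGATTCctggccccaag
Hspa1b: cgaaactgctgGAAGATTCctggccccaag
Hspb1: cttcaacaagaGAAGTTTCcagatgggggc
Hspd1: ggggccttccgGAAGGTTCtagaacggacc
Hspe1: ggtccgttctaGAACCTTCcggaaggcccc
They lie in GRCm38.p6 at chr17:34972242-34972271 (minus strand) for Hspa1a, chr17:34959324-34959353 (minus) for Hspa1b and chr5:135887791-135887820 (plus) for Hspb1, which had another element nearby that is not shown. Hspd1 (minus strand) and Hspe1 (plus strand) share chr1:55088053-55088082, the stretch between these divergently transcribed genes. The windows of Hspa1a and Hspa1b were identical, and in both the element began 104 bases before the start. Hspb1 was spread from 401 to 885 TPM (median 517), highest in mouse 3. Hspd1 and Hspe1, the mitochondrial chaperonin and its lid, stayed at 183 ± 13.2 TPM and 145 ± 25.1 TPM. Dnajb1, which varied as much as Hspa1a, is not among the 12. Whether the element bears on the spread between mice was not tested.

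Mitochondrially encoded genes held 2.87% ± 1.21 of the TPM. The shares in mice 1 to 6 were 4.18%, 4.53%, 1.61%, 2.65%, 2.29% and 1.94%, so mice 1 and 2 were the high ones. Within the group, whose RNAs are cut from long shared precursors, the levels were far apart. mt-Cytb (a subunit of complex III) had 10709 ± 4439.9 TPM, mt-Nd1 4824 ± 2227 TPM, mt-Co1 4300.3 ± 1818 TPM, mt-Nd2 2727 ± 1215 TPM and mt-Nd4 2507 ± 1109 TPM. mt-Nd6, the only one encoded on the other strand, had 1853 ± 881 TPM. At the other end mt-Co2 had 0.526 ± 0.826 TPM, mt-Co3 1.15 ± 1.71 TPM and mt-Atp6 0.382 ± 0.346 TPM, and mt-Atp8 and mt-Nd4l were listed at 0 in all 6 mice. All 50-base windows of those 5 genes had an identical copy elsewhere in the reference genome, and for mt-Nd3 (64.8 ± 32.6 TPM) the share was 99.0%. mt-Co1 and mt-Nd4 had copies for only a part of their windows, 51.1% and 62.2%. Whether copies bear on these levels was not tested. Among all 3321 genes of 50 TPM or more with a value, 66 (1.99%) had copies for 50% or more of their windows.

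Nuclear genes of oxidative phosphorylation held 3.52% ± 0.446 of the TPM. Of these 92 genes 84 were above 1 TPM in every mouse, against 45.6% of all protein-coding genes. The higher subunits were Cox8a (1982 ± 260.1 TPM), Cox6a1 (1731 ± 258 TPM) and Ndufa1 (1549 ± 133 TPM). Mouse 2 had the largest share (4.14%) and mouse 5 the smallest (2.99%). Glycolytic enzymes were led by Aldoa (1079 ± 103 TPM), Pkm (545 ± 56.2 TPM) and Tpi1 (340.4 ± 51.5 TPM). Ldhb was high in mouse 2 alone, at 619.8 TPM against a median of 118.4 TPM.

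The protein synthesis genes were moderate in level. Of the 90 cytosolic ribosomal protein genes, 12 (13.3%) had copies elsewhere for 50% or more of their 50-base windows. Over all genes of 50 TPM or more this part was 1.99%, so the ribosomal protein levels and their share are uncertain. Rplp1 (823 ± 93.0 TPM), Rplp0 (526 ± 129 TPM) and Rps29 (509.6 ± 79.9 TPM) led the ribosomal proteins, and the translation factors Eef1a1 (1285 ± 265 TPM), Eif1 (1048 ± 72.7 TPM) and Eif5a (966 ± 134.4 TPM) stood above them. Among translation factors mouse 1 held the highest value for 15 of 30 and mouse 5 the lowest for 17, against 22.1% and 15.8% of all 10357 genes. Lars2, the mitochondrial leucyl-tRNA synthetase, ranked 27th with 2933 ± 613 TPM, and the long noncoding Gm15564 had 2761 ± 557 TPM. Lars2 lies on chromosome 9 and Gm15564 on chromosome 16. Their ratio was 1.06 ± 0.015, between 1.046 and 1.081 in all 6 mice, while the CV was 20.9% for Lars2 and 20.2% for Gm15564. Whether reads shared between these genes bear on this ratio was not tested, so their separate levels and the rank of Lars2 are uncertain.

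Protein turnover genes were abundant and steady. The ubiquitin and proteasome list of 39 genes, shorter than the class of 155 genes described above, summed to 11552 ± 680.3 TPM. Of the 39 genes 38 were above 1 TPM in every mouse (97.4%, against 45.6% of all protein-coding genes). Ubb (polyubiquitin) had 2380.0 ± 251 TPM, the autophagy receptor Sqstm1 (p62) 1218 ± 116 TPM and the proteasome subunit Psma6 599 ± 53.6 TPM. The catalytic subunit Psmb5 of the constitutive proteasome had 459.7 ± 42.5 TPM, and its immunoproteasome counterpart Psmb8 had 3.69 ± 1.19 TPM. Psmb9 and Psmb10, the other immunoproteasome subunits, had 13.9 ± 2.26 TPM and 35.7 ± 4.75 TPM. Class I antigen presentation was present, with B2m at 1566 ± 228 TPM and H2-D1 at 1414 ± 337 TPM, the latter lowest in mouse 1 (865 TPM). Tapbp (tapasin) had 522 ± 60.9 TPM.

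Vesicle and lysosome genes summed to 26092 ± 2017 TPM, with Itm2b, Cd81 and Tmem59 (1840.1 ± 168 TPM) highest. Rab3b, a GTPase of regulated exocytosis, had 827 ± 156 TPM. The intermediate filament proteins Nes (nestin) and Vim (vimentin) had 811 ± 221 TPM and 603 ± 79.4 TPM, Map1lc3a 526 ± 80.8 TPM, and the microtubule-associated protein Mapt (tau) 349 ± 40.95 TPM. Vim exceeded Des (desmin) by 4.19 ± 0.74 log2 units. S100a11 (2221 ± 468 TPM) and Anxa2 (937 ± 115 TPM) followed Calm2 among the calcium-binding proteins. Ferritin heavy chain Fth1 had 1652 ± 319 TPM, and the selenoproteins Selenow and Selenop had 1431 ± 254 TPM and 1358 ± 238 TPM.

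The cell cycle list was almost wholly Cdkn1c, which supplied 98.4% of its sum. Cdkn1c exceeded Cdkn1a (p21) by 9.17 ± 1.00 log2 units. Pcna had 47.0 ± 6.26 TPM, with copies for 54.8% of its windows. Mki67 and Top2a, markers of dividing cells, had means of 0.117 and 0.159 TPM, and Cdkn2a was listed at 0 in all 6 mice. Cdkn1c also led the imprinted genes with 84.4% of their sum, ahead of Gnas (649 ± 101 TPM) and Slc38a4 (72.4 ± 7.92 TPM). Mirg, Magel2 and Rtl1 were listed at 0. Xist, the RNA of the inactive X chromosome, ranged from 16.8 to 38.1 TPM (median 22.4), Tsix and Ddx3y had means of 0.260 and 0.00560 TPM, and the Y-linked Eif2s3y, Usp9y and Zfy1 were listed at 0 in all 6 mice. The labels do not give the sex of the mice.

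Spread between mice depended on abundance. Over the 10357 genes above 1 TPM in every mouse the median CV was 17.5% with quartiles of 12.3% and 26.1%. The median CV was 28.8% for genes with a mean of 1 to 10 TPM, 16.1% for 10 to 100, 12.3% for 100 to 1000 and 14.9% for 1000 TPM or more. The CV that read counting alone would give had medians of 8.34%, 3.67%, 1.72% and 0.673% in the same ranges, so the median spread exceeded the median counting error in each range. 424 genes (4.09%) had a CV above 50%.

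The steadiest genes of 50 TPM or more were C1qbp (a mitochondrial matrix protein, from 58.0 to 60.5 TPM (median 58.9), CV 1.79%), Dpysl2 (2.24%), Naxd (2.41%), Med19 of the Mediator complex (2.43%), Scp2 (3.05%), Cyp27a1 (3.29%) and the proton pump subunits Atp6v1a (3.33%) and Atp6v1b2 (3.44%). The most variable were S100g (from 6.60 to 705 TPM (median 14.7)), Klk1 (from 2.60 to 885 TPM (median 22.9)), Umod (from 1.53 to 416 TPM (median 16.2)) and Wfdc15b (from 0.977 to 554 TPM (median 13.6)), all highest in mouse 2. The other 4 were Dcn (from 0 to 272 TPM (median 4.05)), Mgp (from 0 to 391 TPM (median 7.92)), Acta1 (from 0 to 371 TPM (median 10.7)) and Chi3l1 (from 0.962 to 352 TPM (median 5.17)), all highest in mouse 1. S100g, Klk1 and Umod are known from distal tubules, and Dcn and Mgp from fibroblasts and vessel walls.

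**Figure D4:**
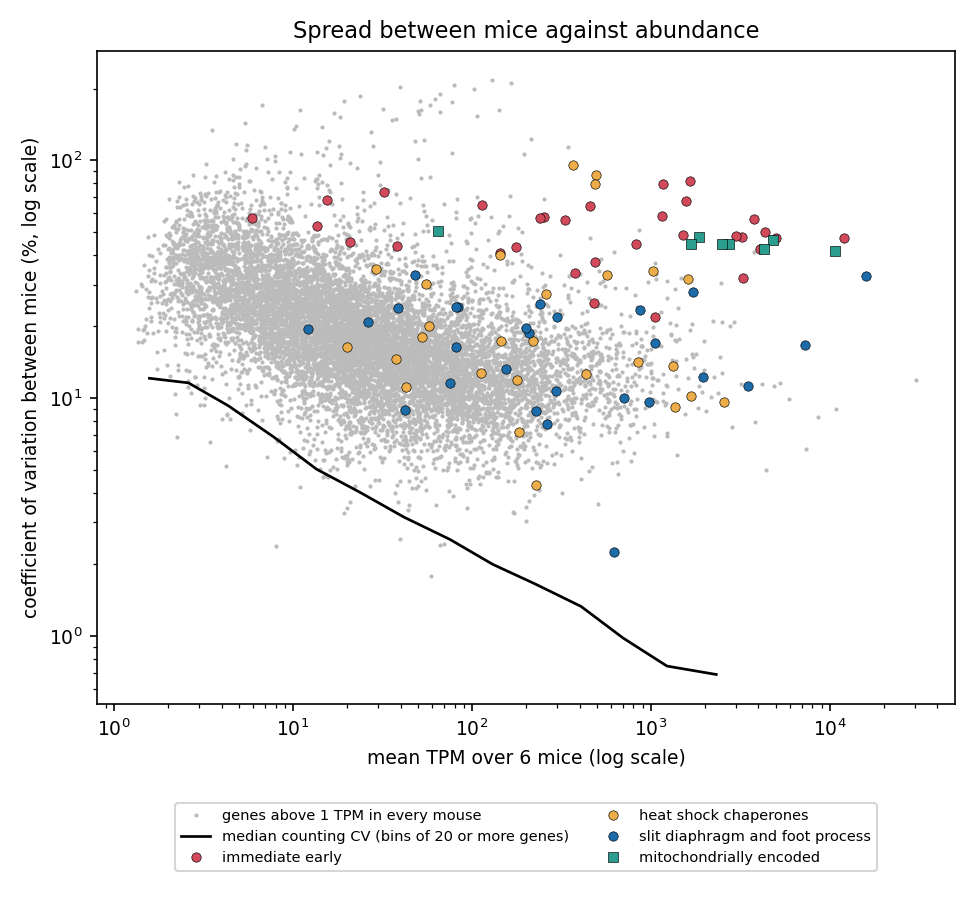
CV between the 6 mice (%, log axis) against mean TPM (log axis) for the 10357 genes above 1 TPM in every mouse, with 4 groups in colour and the CV of read counting as a black line through bins of 20 or more genes. Immediate early and mitochondrially encoded genes sit high for their abundance, Dpysl2 lies lowest among the coloured points at 2.24%, and most of the grey cloud lies above the counting line.

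Markers of other renal cells were low, and they moved with particular mice. Endothelial markers summed to 1795 ± 255.8 TPM, but 97.8% of this was Cldn5 (1755 ± 236 TPM), a claudin that podocytes are known to make. Apart from Cldn5 and Ehd3 (16.8 ± 2.53 TPM), no endothelial marker passed 1 TPM in every mouse: Emcn had a median of 0.786 TPM and Kdr 1.53 TPM. Mesangial, pericyte and smooth muscle markers summed from 44.7 to 339 TPM (median 71.7), highest in mouse 1, where Lum reached 136 TPM and Acta2 80.1 TPM. The parietal epithelial list summed from 233 to 328 TPM (median 262), mostly Alcam (156 ± 9.24 TPM), with Cldn1 at 24.3 ± 4.67 TPM and Pax8 at 13.8 ± 3.95 TPM.

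Tubule and blood cell transcripts differed more. Proximal tubule markers summed from 2199.8 to 7937 TPM (median 3925), of which Gpx3 was 90.2%. Miox had 43.4, 593, 4.37, 18.8, 178 and 11.7 TPM in mice 1 to 6, Slc34a1 16.9, 219.8, 2.30, 4.38, 59.1 and 11.1 TPM and Kap 112, 208, 4.31, 8.43, 119.8 and 11.6 TPM. Mouse 2 was highest in each, mouse 5 next in Miox, Slc34a1 and Kap, and mice 3, 4 and 6 were low. Distal nephron markers summed to 1553 TPM in mouse 2 and to between 93.2 and 262 TPM in the other mice. Umod had 1.53, 416, 28.2, 1.75, 25.1 and 7.29 TPM, Slc12a1 0, 157, 6.70, 0, 7.21 and 1.51 TPM and Aqp2 0.135, 103, 3.16, 1.58, 0.369 and 8.30 TPM. Leukocyte markers summed to 616 TPM in mouse 1, 124 TPM in mouse 6 and 7.74 to 52.5 TPM in the other 4. Lyz2 had 285, 1.49, 2.19, 1.98, 22.3 and 58.3 TPM and C1qb 68.0, 1.35, 2.06, 0, 5.94 and 5.80 TPM. Erythroid markers reached 93.5 TPM in mouse 1, mostly Hbb-bs (46.5 TPM), Hba-a1 (19.9 TPM) and Hbb-bt (16.7 TPM), and at most 2.65 TPM elsewhere. Without mouse 1 the leukocyte sum averaged 42.5 TPM and the erythroid sum 0.859 TPM, and without mouse 2 the distal nephron sum averaged 163 TPM and the proximal tubule sum 3424 TPM.

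Summed over all 7 lists, markers of other cells made up 0.445% to 1.12% of the TPM, against 2.98% to 4.61% for the slit diaphragm list. Cldn5, Gpx3, Alcam and Egf held most of that. Without these 4 the sums in mice 1 to 6 were 1772, 3180, 307, 203, 800 and 491 TPM, so mice 1 and 2 carried the largest amounts. These are also the mice with the highest mitochondrial shares. The part of other cells in that share was not tested.

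**Figure D5:**
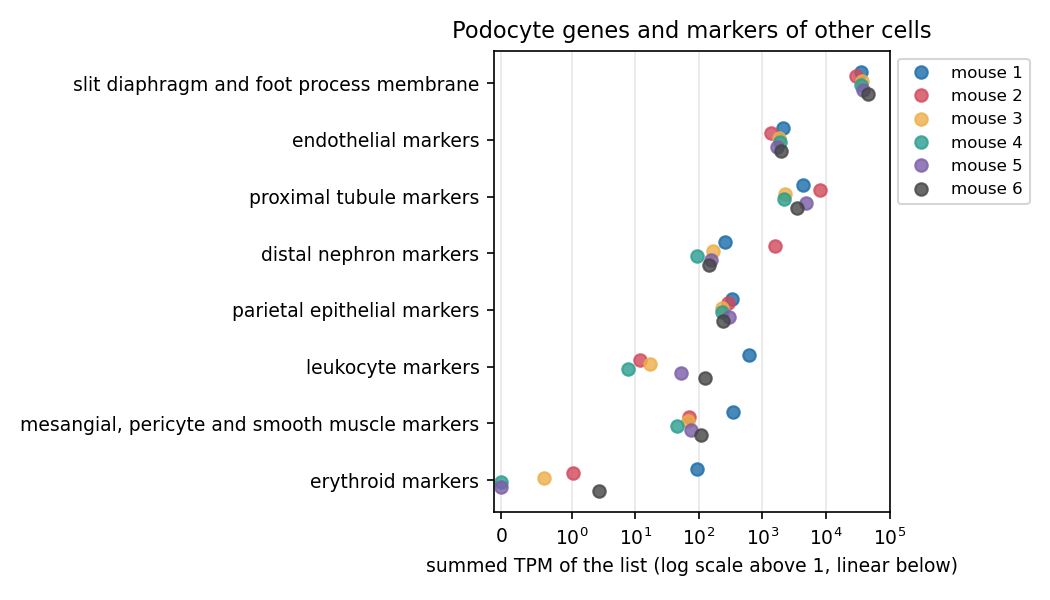
Summed TPM of the slit diaphragm list and of 7 lists of markers of other cells (rows), with a dot for each mouse, on an axis that is logarithmic above 1 and linear below. The slit diaphragm sums lie between 29810 and 46076 TPM, mouse 1 stands apart for leukocyte, mesangial and erythroid markers, and mouse 2 for distal nephron markers.

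Across the 6 mice 4 relations between sums were tested with exact permutation tests over pairings, and none passed a Benjamini-Hochberg value of 0.05. The immediate early sum and the heat shock sum had r = 0.734 (exact p = 0.0931, adjusted 0.278) and a Spearman rank coefficient of 0.771 (exact p = 0.103, adjusted 0.272), with r = 0.461 once the mice farthest from the median, 1 and 6, were left out. The mitochondrial share and the nuclear oxidative phosphorylation share had r = 0.714 (exact p = 0.139, adjusted 0.278) and a rank coefficient of 0.714 (exact p = 0.136, adjusted 0.272). That relation rested on mice 1 and 2, without which r was -0.26. The mitochondrial and ribosomal protein shares had r = 0.388 (exact p = 0.471, adjusted 0.471) and a rank coefficient of 0.314 (exact p = 0.564, adjusted 0.658), and r = -0.13 without mice 1 and 2. The slit diaphragm sum and the summed markers of other cells had r = -0.55 (exact p = 0.217, adjusted 0.289) and a rank coefficient of -0.26 (exact p = 0.658, adjusted 0.658), and r = 0.171 without mice 2 and 6. Shares of a fixed total are not independent of each other, which these tests do not correct for.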

How the data were processed

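Podocyte RNA was converted to polyA-selected libraries with the SMART-Seq mRNA LP kit and sequenced single-end; read length is not given in the sources used here. According to the methods and the processing notes, the authors trimmed reads with Trim Galore 0.6.7, aligned them with STAR to GRCm39 (Ensembl annotation; up to 20 alignments allowed, 1 reported), marked duplicates with Picard and counted with featureCounts 1.6.3. The deposited values are TPM, normalised by the authors. How counts became TPM, and whether duplicates were removed, is not given in the sources used here. The alignment reported for a read with many matches was picked at random, and whether such reads were counted is not given there either. Genes with copies for every window held few reads, mt-Co2 0 to 5 and mt-Co3 0 to 14 in a mouse. mt-Co1, with copies for 51.1% of its windows, held 23592 to 55106 reads, and mt-Cytb, with none, 42118 to 98346. Whether the treatment of such reads bears on these levels was not tested, which limits what is said of genes with copies.

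Libraries were grouped by the deposited genotype and treatment labels. Python 3.11.15, pandas 2.3.3, numpy 2.4.6 and scipy 1.17.1 gave means, SDs, coefficients of variation (CV), two-sided exact sign-flip tests of log2(TPM + 1) and exact permutation tests of correlations, all tested on simulated data first. Reads were recovered from TPM steps within 0.02 reads and cover 99.9% or more of the TPM in each mouse; they are PCR reads without molecular identifiers, so counting CVs cover counting error only. Names, positions, exon overlap and 50-base copies came from GENCODE vM39 and GRCm39, the build of the files but a newer annotation: 32776 genes had a name and 516 (432 TPM) did not.

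Genes named are the 25 highest, the 3 highest of each list, the 8 highest and 8 lowest CVs among genes of 50 TPM or more, both genes of each pair, Lmx1b, the markers and list members at 0. Some genes under this rule are not reported here. Further list members are named with their values, chosen after these were seen. Members, lists, pairs and class rules were chosen with earlier results of these data known. Other TPM limits, pseudocounts, scalings and each mouse left out were tried.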

Additional observations from a re-analysis of the deposited data

Results flagged for a closer look

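In a group of 6 mice, a value was looked at again when the gap between the highest or lowest mouse and the nearest other mouse was a larger share of the whole range than Dixon's test allows, a limit that chance passes in about 1 in 20 groups. Of 165 genes and sums looked at, 30 passed this limit (18.2%). Among all 10357 genes above 1 TPM in every mouse, 646 passed it (6.24%). The 165 include genes named for their high spread and sums beside their own members, so that this count is a description only. The mouse that stood apart was mouse 1 in 18 cases, mouse 2 in 8, mouse 6 in 3 and mouse 5 in 1, and never mouse 3 or mouse 4. The values below are these shares of the range.

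Mouse 1 stood apart, always as the highest, in the summed markers of erythroid cells (0.972), leukocytes (0.810) and mesangial, pericyte and smooth muscle cells (0.789). Single blood cell genes were Hbb-bt (1.0), Hba-a1 (0.989), Hbb-bs (0.986), C1qb (0.913) and Lyz2 (0.799). Genes of vessels, smooth muscle and connective tissue were Synpo2 (0.957), Mgp (0.897), Lum (0.895), Dcn (0.894), Acta1 (0.887), Acta2 (0.867), Plvap (0.848), Cd34 (0.840) and Col4a1 (0.743), beside Chi3l1 (0.863).

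Mouse 2 was the highest in the summed distal nephron markers (0.885) and in S100g (0.966), Klk1 (0.941), Umod (0.936), Wfdc15b (0.902), Egf (0.766) and the proximal tubule gene Miox (0.705). It was also the highest in Cdkn1a (0.769). Mouse 6 was the highest in Trpc6 (1.0), Actb (0.838) and Lama1 (0.761), and mouse 5 in Ddx3y (1.0). Trpc6, Lama1 and Ddx3y were under 1 TPM in every mouse, so that a few reads decide those cases.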

How the results depend on the processing

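No pairing of mice between groups was possible, because a single group of mice is described and no groups are compared. Only the genes of a pair were compared within each mouse. Counted as recovered reads in place of TPM, the mitochondrially encoded share was 0.964% and the ribosomal protein share 0.750%, both classes of short transcripts. Without a filter on low values the median CV over every gene above 0 in at least 1 mouse was 44.1%. Leaving out each mouse in turn gave 10417 to 10509 genes above 1 TPM in every remaining mouse, 421 to 435 genes that fill 50% of the TPM, a mitochondrial share of 2.53% to 3.12%, a ribosomal protein share of 1.55% to 1.69% and a median CV of 16.8% to 17.7%. The relation between the slit diaphragm sum and the markers of other cells ran from r = -0.78 to r = 0.0482, the positive value being the one without mouse 2; without Cldn5, Gpx3, Alcam and Egf, an alternative chosen after seeing the data, r was -0.68. The difference of Trpc6 against Trpc5 ran from -0.021 log2 units without mouse 6, which holds all Trpc6 reads, to 0.0982. In the other 19 pairs the direction held with a pseudocount of 0.1 and without each mouse. Results with no test that moved by less than 1 SD between mice are not listed. Read depth limits what is said of genes under 0.735 TPM, the level of 3 reads at 1 kb in the shallowest library. Copies in the genome limit what is said of the mitochondrially encoded and ribosomal protein shares. They also limit what is said of single mitochondrial, ferritin, actin and Hsp70 genes. For Lars2 and Gm15564 a sharing of reads was not tested, which limits what is said of their levels.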
